A study of Mus musculus with 12 samples.

Results

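Inflammatory chemokines are small secreted proteins that call leukocytes into tissue, and 10 of their genes were followed here in the mouse brain 6 h after the onset of focal ischemia. They were listed by symbol, with earlier results of these data known, as 6 genes of the CC class (Ccl2, Ccl3, Ccl4, Ccl5, Ccl7 and Ccl12) and 4 of the CXC class (Cxcl1, Cxcl2, Cxcl10 and Cxcl12). All 10 were found among the 31208 features of the count table. The study compared 3 groups of 4 male C57BL/6 mice aged 8 weeks: sham-operated mice, mice with occlusion of the left middle cerebral artery (MCAO) that had received vehicle, and MCAO mice that had received lactate. Vehicle was 2 µL of sterile saline and lactate was 2 µL at 100 mmol/L, each given into the cerebral ventricle 24 h before surgery. The methods name D-lactate for the sequencing experiment, the labels say only lactate, and an injection of the sham mice is not described. The brain of each mouse gave 1 library of full-length cDNA, amplified by PCR and read as long nanopore reads.

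CC chemokines such as Ccl2, Ccl7 and Ccl12 act on the receptor Ccr2 and draw monocytes, while Ccl3, Ccl4 and Ccl5 draw macrophages and T cells, Ccl3 and Ccl5 in part through Ccr1. Cxcl1 and Cxcl2 act on Cxcr2 and draw neutrophils, Cxcl10 is an interferon-induced ligand of Cxcr3, and Cxcl12 is a homeostatic ligand of Cxcr4 that brain endothelium and other resident cells make without injury. In injured brain, microglia, astrocytes, endothelium and arriving leukocytes are known sources of the induced members, many of which are target genes of the transcription factor NF-kappa B. The RNA came from bulk tissue, in which fewer cells of a type and less RNA per cell cannot be told apart.

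The members lie in few places of the genome (GENCODE release 21, GRCm38). Ccl2 (chr11:82035571-82037453), Ccl7 (chr11:82045712-82047525) and Ccl12 (chr11:82101845-82103400) follow each other on the plus strand, with 8.3 kb between Ccl2 and Ccl7 and 54.3 kb between Ccl7 and Ccl12. Farther along chromosome 11 lie Ccl5 (chr11:83525778-83530518, minus strand), Ccl3 (chr11:83647844-83649355, minus strand) and Ccl4 (chr11:83662584-83664683, plus strand), the last pair 13.2 kb apart. Cxcl1 (chr5:90891241-90893115) and Cxcl2 (chr5:90903871-90905938) are neighbours on the plus strand of chromosome 5 with 10.8 kb between them, Cxcl10 (chr5:92346638-92348889) lies on its minus strand, and Cxcl12 (chr6:117168535-117181367) stands alone on the plus strand of chromosome 6.

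Promoter sequences of 300 bases, from 250 before to 50 after the start of the gene, were taken from RefSeq (GRCm38.p6), which held 6 of the 10 members. They are shown for 5 genes that the results turn on: the neutrophil ligands Cxcl1 and Cxcl2, the interferon-induced Cxcl10, and Ccl12 and Cxcl12, whose values set them apart from the other members. Capitals mark matches to the NF-kappa B consensus, searched on both strands, and each sequence is written on the strand of its gene.

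Cxcl1, chr5:90890995-90891294 (+): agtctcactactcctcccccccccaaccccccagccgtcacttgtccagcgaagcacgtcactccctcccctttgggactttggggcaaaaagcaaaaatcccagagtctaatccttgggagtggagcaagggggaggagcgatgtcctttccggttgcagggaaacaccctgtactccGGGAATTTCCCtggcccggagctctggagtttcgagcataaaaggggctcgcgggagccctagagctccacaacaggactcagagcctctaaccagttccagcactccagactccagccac

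Cxcl2, chr5:90903649-90903948 (+): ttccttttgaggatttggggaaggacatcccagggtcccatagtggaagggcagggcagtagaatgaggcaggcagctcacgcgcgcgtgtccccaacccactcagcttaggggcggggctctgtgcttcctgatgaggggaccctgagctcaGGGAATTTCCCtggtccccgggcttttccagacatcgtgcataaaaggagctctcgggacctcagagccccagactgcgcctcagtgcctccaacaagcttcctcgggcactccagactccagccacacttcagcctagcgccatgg

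Cxcl10, chr5:92348840-92349139 (-): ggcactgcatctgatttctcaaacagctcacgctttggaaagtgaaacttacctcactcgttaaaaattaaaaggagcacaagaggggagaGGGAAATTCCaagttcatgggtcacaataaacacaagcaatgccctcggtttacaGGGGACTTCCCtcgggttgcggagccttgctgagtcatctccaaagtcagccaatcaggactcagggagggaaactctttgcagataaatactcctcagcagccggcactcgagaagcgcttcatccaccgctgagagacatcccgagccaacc

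Ccl12, chr11:82101595-82101894 (+): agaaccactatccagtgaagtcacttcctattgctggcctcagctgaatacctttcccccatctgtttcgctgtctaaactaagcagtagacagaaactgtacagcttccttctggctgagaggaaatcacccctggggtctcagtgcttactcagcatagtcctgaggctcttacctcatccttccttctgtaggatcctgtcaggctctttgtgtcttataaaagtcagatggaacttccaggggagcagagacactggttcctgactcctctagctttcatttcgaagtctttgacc

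Cxcl12, chr6:117168285-117168584 (+): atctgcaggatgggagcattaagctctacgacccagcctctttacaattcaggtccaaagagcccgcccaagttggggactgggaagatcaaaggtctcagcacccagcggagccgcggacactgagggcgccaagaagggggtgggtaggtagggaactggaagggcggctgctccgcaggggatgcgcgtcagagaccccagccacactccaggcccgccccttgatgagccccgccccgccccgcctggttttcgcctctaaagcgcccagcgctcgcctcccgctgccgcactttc

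Cxcl1 and Cxcl2 held the same letters, GGGAATTTCC on the strand of the gene, starting 71 and 97 bases before its start, and overlapping it 1 base on a match on the opposite strand (GGAATTTCCC as printed). Cxcl10 held GGGAAATTCC at 159 bases and overlapping matches at 104 (GGGGACTTCC) and 103 bases (GGGACTTCCC, a match on both strands). No match was found in these windows of Ccl3, Ccl12 and Cxcl12. Of all 32851 promoters of the same length, 8.46% held a match. Cxcl10 alone of the 6 also held the interferon-response repeat (GAAA, any 2 bases, then GAAA, in 3.44% of all promoters) and the AP-1 motif TGANTCA (7.81%). Ccl12 alone held TATAAA (13.6%), and Cxcl1 alone held ACGTG (19.6%), a form of the core of the hypoxia-response element. The form GCGTG was not part of the search, and the sequences of Cxcl2 and, on the opposite strand, Cxcl10 hold it. These are matches of letters, not sites shown to be bound.

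Total counts per mouse ranged from 6815920 to 10677224, so 3 counts, taken as the floor of detection, are less than 0.5 CPM (counts scaled to the total of the mouse) in every mouse. Vehicle mouse 1 stood apart from the other mice on the second principal component (61.8, against -17.5 to 7.67), and vehicle mouse 2 held 1835 CPM of choroid plexus markers against at most 18.4 in the other 11 mice. Both were kept, and values without them are given where they change the call of a member or the count of a chemokine, receptor or NF-kappa B list. The labels name no batch, and 0 pairs of mice had identical counts. Neuron markers, which check the labelled tissue, summed to 3594 CPM or more in every mouse.

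In sham brain, 8 of the 10 members were at or under the floor in all 4 mice. Cxcl2 gave 0 counts in each sham mouse, and Ccl2, Ccl3, Ccl4, Ccl5, Ccl7, Cxcl1 and Cxcl10 gave 0, 1 or 2. Ccl12, with 14, 24, 22 and 18 counts, and Cxcl12, with 194, 198, 219 and 215 counts, were the exceptions. The baseline of the sham brain therefore rests on few reads for most members, and ratios against it are given with 95% intervals. Without molecular identifiers these intervals, like the floor, account for counting error alone.

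**Figure D1:**
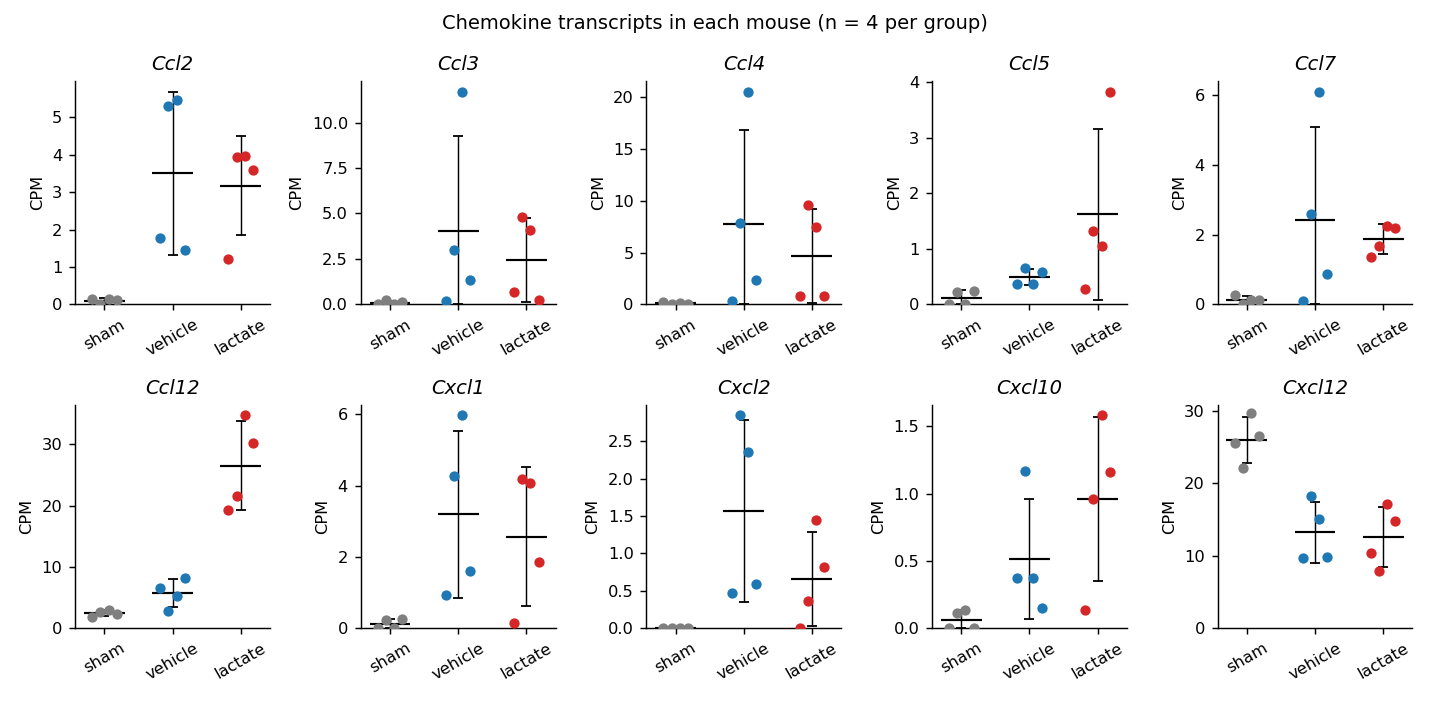
Level of each chemokine in CPM (vertical axis, starting at 0, with its own scale in each panel) in the 4 sham, 4 vehicle and 4 lactate mice. Each point is 1 mouse, the horizontal line is the group mean and the bar is 1 SD (cut at 0). Ccl12 is highest in the 4 lactate mice, at 19.3 to 34.8 CPM, and Cxcl12 is highest in the 4 sham mice.

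The first comparison asked how ischemia with vehicle differed from sham. Of the 10 members, 5 rose (Ccl2, Ccl3, Ccl4, Cxcl1 and Cxcl2) and 0 fell, with an adjusted p under 0.05 and a change of 1.5-fold or more as the limits. Of all 24099 features tested, 1.16% were called, 1.02% higher and 0.141% lower. At an unadjusted p under 0.05 with the same fold limit, 9 members were higher and 1 lower, beside 10.5% of all features, 7.49% higher and 2.98% lower. Without overlap of the CPM values, 6 members were higher (4.49% of all features) and 1 lower (3.98%). The median log2 fold change of the 10 members was 4.32 (4.06 with Cxcl2 at its lower bound), beside 0.03 over all features. The count of 5 was 1 or 2 without any 1 of the sham mice, 2 without vehicle mouse 3 and 6 without vehicle mouse 1. The calls over all features, 279, moved in the same way, to 122 to 131, 170 and 498.

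Ccl2, the main monocyte chemoattractant, gave 19, 41, 44 and 10 counts in vehicle mice 1 to 4 and at most 1 count in a sham mouse. The groups did not overlap, and mice 2 and 3 held over 5 CPM where mice 1 and 4 held under 2. Ccl2 rose from 0.0978 ± 0.0654 to 3.51 ± 2.18 CPM (mean ± SD, n = 4 each), a log2 fold change of 5.03 (SE 0.69, adjusted p = 0.00169). The ratio of summed reads was 36.6 (95% interval 12.2 to 180). Ccl2 was the one member called in each of the 8 fits that left out 1 mouse, with an adjusted p of at most 0.0145. Its chromosomal neighbour Ccl7, a second monocyte ligand, gave 1, 20, 49 and 6 counts, so that vehicle mouse 1 lay within the sham range of 0 to 2. Its log2 fold change of 4.11 (SE 1.03) missed the threshold (adjusted p = 0.083). It passed without vehicle mouse 1 (adjusted p = 0.00723), with DESeq2 (0.00814) and with all 12 mice in 1 fit (0.0388).

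Ccl3 and Ccl4 (macrophage inflammatory proteins 1 alpha and 1 beta) had the largest SD in CPM among vehicle mice relative to their means. Ccl3 gave 2, 23, 94 and 9 counts in vehicle mice 1 to 4, and Ccl4 gave 3, 61, 165 and 16. In both genes mouse 3 was highest and mouse 1 was close to sham, where Ccl3 and Ccl4 reached 2 counts. Ccl3 was at 4.05 ± 5.23 CPM and rose by 5.23 on the log2 scale (SE 1.17, adjusted p = 0.0451), with a ratio of summed reads of 41.1 (13.8 to 202). Ccl4 was at 7.77 ± 9.10 CPM and rose by 6.16 (SE 1.21, adjusted p = 0.0229), with a ratio of 78.7 (26.6 to 384). Both calls were lost without vehicle mouse 3, to an adjusted p of 0.138 for Ccl3 and 0.0526 for Ccl4, and Ccl3 also without vehicle mouse 2 (0.0788). The Ccl3 call was lost as well with all 12 mice in 1 fit (0.0566) and with Ensembl genes only (0.0617).

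The neutrophil ligands rose as well. Cxcl1 gave 10, 33, 48 and 11 counts in vehicle mice and 0, 2, 0 and 2 in sham mice, without overlap. Its level went from 0.117 to 3.20 ± 2.35 CPM, a log2 fold change of 4.54 (SE 0.79, adjusted p = 0.0108) and a ratio of summed reads of 24.6 (9.30 to 91.9). Cxcl2 gave 5, 22, 19 and 4 counts, all above the floor, and was at least 16.1-fold higher than sham when the sham group was set at 3 counts in all (adjusted p = 0.0264). In both genes, as in Ccl2, mice 2 and 3 were the higher pair. The Cxcl2 call was lost without vehicle mouse 2 (adjusted p = 0.0662) or 3 (0.0722). Leaving out any 1 sham mouse ended the calls of Ccl3, Ccl4 and Cxcl2 (adjusted p of at most 0.171, 0.119 and 0.0912), and leaving out sham mouse 1 (0.0526) or 3 (0.0515) ended that of Cxcl1.

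Among the remaining members, Ccl5 (RANTES, a ligand of T cells and monocytes) stayed low and even, with 4, 5, 3 and 4 counts in vehicle mice (log2 fold change 1.88, SE 0.82, adjusted p = 0.331). Cxcl10 gave 4, 9, 3 and 1 counts (2.79, SE 0.96, adjusted p = 0.223). Cxcl10 lies within the gene Art3 on the opposite strand, which held 813 counts in the 12 mice, and whether the counting used strand is not given in the sources used here. Ccl12, a mouse monocyte ligand, gave 69, 22, 42 and 56 counts, and at 5.69 ± 2.26 CPM it was 1.24 (SE 0.33) above the sham mean of 2.43 ± 0.502 CPM on the log2 scale (adjusted p = 0.103). Vehicle mouse 2 lay within the sham range for Ccl12, and without it the call passed (adjusted p = 0.0359), as with DESeq2 (0.0363). Cxcl12 was the single member with a negative value: 103, 141, 121 and 67 counts, or 13.2 ± 4.21 CPM against 26.0 ± 3.16 in sham, without overlap (log2 fold change -0.95, SE 0.22, adjusted p = 0.0593). It passed without vehicle mouse 2 (adjusted p = 0.0278), with DESeq2 (0.00499) and, just, with the mouse number as a replicate block (0.0496).

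The second comparison set the lactate mice against the same 4 sham mice, so that the comparisons with sham are not independent of each other. All 10 members passed the test, 9 of them higher and Cxcl12 lower, where 8.86% of the 24417 features tested were called, 6.58% higher and 2.28% lower. At an unadjusted p under 0.05 the members' counts were the same, and 19.8% of all features passed, 13.7% higher and 6.10% lower. Without overlap, 6 members were higher (10.6% of all features) and 1 lower (6.76%). The median log2 fold change of the members was 3.96 (3.68 with Cxcl2 at its bound), beside -0.02 over all features. Whether more members respond with lactate than with vehicle is a question for the direct comparison of these groups, given further on.

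Ccl12 had the smallest p of the members. It gave 143, 180, 264 and 260 counts in lactate mice 1 to 4, against 14 to 24 in sham mice. At 26.5 ± 7.26 CPM it rose by 3.41 on the log2 scale (SE 0.24, adjusted p = 4.67e-07), with a ratio of summed reads of 10.9 (8.62 to 13.9). The lowest lactate mouse, at 19.3 CPM, lay far above the highest sham mouse, at 2.99 CPM. Ccl12 was called in all 8 fits that left out 1 mouse, with log2 fold changes of 3.30 to 3.56.

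The other monocyte ligands rose too. Ccl2 gave 9, 33, 30 and 31 counts, at 3.18 ± 1.32 CPM (log2 fold change 4.85, SE 0.60, adjusted p = 0.000174, ratio 34.4 with an interval of 11.5 to 170). Lactate mouse 1 was the low one, at 1.22 CPM, while the other 3 lay between 3.59 and 3.96. Ccl7 was the most even of the induced members, with 10, 14, 17 and 19 counts (1.87 ± 0.430 CPM, log2 fold change 3.72, SE 0.56, adjusted p = 0.00109).

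Ccl3 and Ccl4 again split the mice, this time with mice 2 and 3 high and mice 1 and 4 low. Ccl3 gave 5, 40, 31 and 2 counts and rose by 4.47 (SE 0.99, adjusted p = 0.0121). Ccl4 gave 6, 80, 57 and 7 counts and rose by 5.4 (SE 1.02, adjusted p = 0.005). Ccl5 showed another order, with 2, 11, 8 and 33 counts, the highest in lactate mouse 4, and rose by 3.55 (SE 0.86, adjusted p = 0.0189). Its call was lost without that mouse (adjusted p = 0.0595).

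Cxcl1 gave 1, 35, 31 and 16 counts and rose by 4.19 (SE 0.88, adjusted p = 0.00901), although lactate mouse 1 lay within the sham range. Cxcl2 gave 0, 3, 11 and 7 counts and was at least 7.02-fold higher than sham (adjusted p = 0.039), a call that was lost without lactate mouse 3 (0.0861) or 4 (0.0586). Cxcl10 gave 1, 8, 12 and 10 counts, a ratio of summed reads of 15.5 (3.95 to 134) and a log2 fold change of 3.63 (SE 0.88, adjusted p = 0.0189). In all 3 CXC ligands lactate mouse 1 was the lowest, at or near the sham level. Cxcl12 fell by 1.06 on the log2 scale (SE 0.21, adjusted p = 0.00687), with 77, 66, 130 and 127 counts, or 12.6 ± 4.16 CPM, and no overlap with sham. It was called lower in all 8 fits that left out 1 mouse. Calls also ended without sham mouse 1 (adjusted p = 0.0531) or 3 (0.0564) for Ccl5, without sham mouse 1 (0.0523) or 4 (0.0542) for Cxcl10, and without any 1 sham mouse for Cxcl2 (0.0715 to 0.0782).

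**Figure D2:**
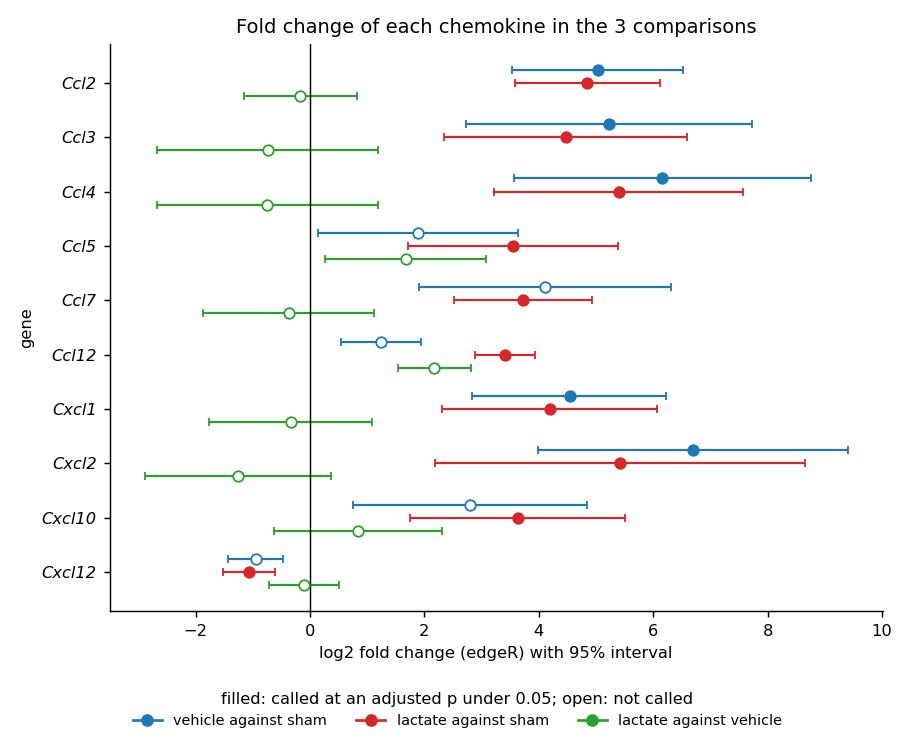
Log2 fold change of each chemokine (horizontal axis) with its 95% interval from the edgeR fit, for vehicle against sham, lactate against sham and lactate against vehicle. Filled points passed an adjusted p under 0.05 and open points did not. The fitted values of Cxcl2 against sham are no bounds, since its sham counts were 0. Ccl12 and Ccl5 are the members whose interval for lactate against vehicle does not reach 0.

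The third comparison, lactate against vehicle in ischemic mice, was the direct test of the added lactate. With edgeR, 0 of the 10 members passed the adjusted threshold, where 1 of 24650 features (0.00406%) was called. At an unadjusted p under 0.05 there were 2 (Ccl12 and Ccl5), both higher, where 6.56% of all features passed, 3.87% higher and 2.69% lower. DESeq2 called 1 member, Ccl12, among 53 features in all, and limma voom called 0 members and 1 feature. The median log2 fold change of the members was -0.25, beside -0.02 over all features, and 3 of 10 fitted values were above 0.

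Ccl12 separated the groups completely. Its counts were 69, 22, 42 and 56 with vehicle and 143, 180, 264 and 260 with lactate, which is 2.85 to 8.22 CPM against 19.3 to 34.8 CPM. The highest vehicle mouse was well below the lowest lactate mouse. The log2 fold change was 2.17 (SE 0.30, 95% interval 1.53 to 2.82), a ratio of summed reads of 4.66 (3.98 to 5.49). Its unadjusted p of 5.99e-06 ranked 2 among 24650 features, and the adjusted p was 0.0738. The call depended on the fit: the adjusted p was 7.24e-09 with DESeq2, 0.00934 with all 12 mice in 1 fit, 0.04 among Ensembl genes only and 0.0472 with the mouse number as a replicate block. It was 0.0687 with limma voom and 0.0502 to 0.406 when 1 mouse was left out. The fitted change itself stayed between 1.97 and 2.38 when 1 mouse was left out.

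Ccl5 was the other member past the unadjusted limit, at 0.496 ± 0.143 CPM with vehicle and 1.62 ± 1.54 CPM with lactate (log2 fold change 1.67, SE 0.65, adjusted p = 0.553). The groups overlapped, since lactate mouse 1 was below all vehicle mice and lactate mouse 4, with 33 counts, held most of the reads. Ccl5 and Ccl12 have the shortest transcripts of the 10, at 532 and 537 nt, close to the 500 bp below which the authors discarded reads. How far this lowered their counts was not tested.

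For the other 8 members the direct comparison was wide. The 95% interval of the log2 fold change ran from -1.16 to 0.82 for Ccl2, from -2.68 to 1.19 for Ccl3, from -2.68 to 1.18 for Ccl4 and from -1.87 to 1.12 for Ccl7. These intervals hold no change and reach past the 1.5-fold limit in both directions. For the CXC members the interval ran from -1.76 to 1.08 for Cxcl1, from -2.89 to 0.37 for Cxcl2 and from -0.63 to 2.31 for Cxcl10, while that of Cxcl12, from -0.72 to 0.50, was the narrowest. The Cxcl12 means of the ischemic groups were 13.2 and 12.6 CPM.

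In order of group means, Ccl5, Ccl12 and Cxcl10 ran from sham through vehicle to lactate, and Ccl2, Ccl3, Ccl4, Ccl7, Cxcl1 and Cxcl2 ran from sham through lactate to vehicle. Cxcl12 ran the other way, with sham highest and lactate lowest. The step between vehicle and lactate missed the adjusted threshold for all 10, and Ccl12 was the member whose groups did not overlap. No overlap between lactate and vehicle, with lactate higher, was found for 2.99% of all features, and with lactate lower for 1.62%.

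**Figure D3:**
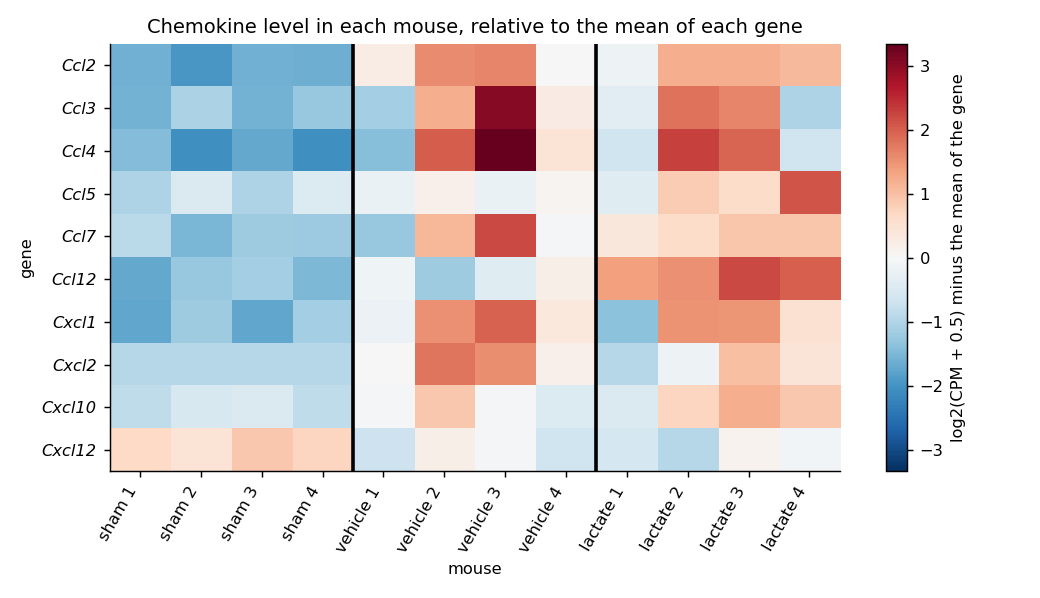
Level of each chemokine (rows) in each mouse (columns), as log2(CPM + 0.5) minus the mean of that gene over the 12 mice, with red above and blue below that mean and black lines between groups. Vehicle mouse 3 is the reddest for Ccl3, Ccl4 and Ccl7, the lactate mice are reddest for Ccl12, and the Cxcl12 row is red in the sham mice.

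The spread among ischemic mice had a pattern of its own. Vehicle mouse 3 was the highest of the 8 ischemic mice for Ccl2, Ccl3, Ccl4, Ccl7 and Cxcl1, and lactate mouse 1 was the lowest for Ccl2, Ccl5, Cxcl1, Cxcl2 and Cxcl10. In Ccl3, Ccl4 and Ccl7 the lowest ischemic mouse was vehicle mouse 1, with 2, 3 and 1 counts, at or under the floor, and the highest had 94, 165 and 49. In Ccl2, Ccl12 and Cxcl12 all 8 ischemic mice were above the floor, with 9 to 44, 22 to 264 and 66 to 141 counts.

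All 45 pairs of members were compared over the 8 ischemic mice on log2(CPM + 0.5), a comparison chosen after the values were seen. The mice of both treatment groups were pooled. The correlation was positive in 36 pairs, 7 of the other 9 were pairs with Ccl12, and 2 passed a Benjamini-Hochberg adjustment over the 45 by Pearson's r and 3 by Spearman's rho. The neighbours Ccl3 and Ccl4 moved together most closely, with r = 0.98 (exact permutation p = 9.92e-05, adjusted 0.00446) and rho = 0.95 (exact permutation p = 0.00114, adjusted 0.0257). Without the 2 mice farthest from the median, r was 0.97. In the 5 mice with at least 10 Ccl4 counts, Ccl3 held between 0.377 and 0.57 reads for each read of Ccl4.

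Ccl2 and Cxcl1, which lie on different chromosomes, gave r = 0.91 (exact permutation p = 0.000397, adjusted 0.00893) and rho = 0.95 (exact permutation p = 0.00114, adjusted 0.0257), and r = 0.92 without the 2 farthest mice. Ccl4 and Cxcl1 gave r = 0.87 (exact permutation p = 0.00608, adjusted 0.0892) and rho = 0.93 (exact permutation p = 0.00223, adjusted 0.0335). These values are over both treatment groups, and each group of 4 mice is too small for a value of its own. Ccl12, whose ischemic groups did not overlap, is better seen by group. In vehicle mice 1 to 4, Ccl12 was at 6.46, 2.85, 5.23 and 8.22 CPM where Ccl2 was at 1.78, 5.31, 5.48 and 1.47. Mice 2 and 3, with more Ccl2, had less Ccl12 than mice 1 and 4, but mouse 3 was above mouse 2 for both genes. In lactate mice 1 to 4, Ccl12 was at 19.3, 21.6, 34.8 and 30.2 CPM and Ccl2 at 1.22, 3.95, 3.96 and 3.59, and mouse 1 was the lowest for both.

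**Figure D4:**
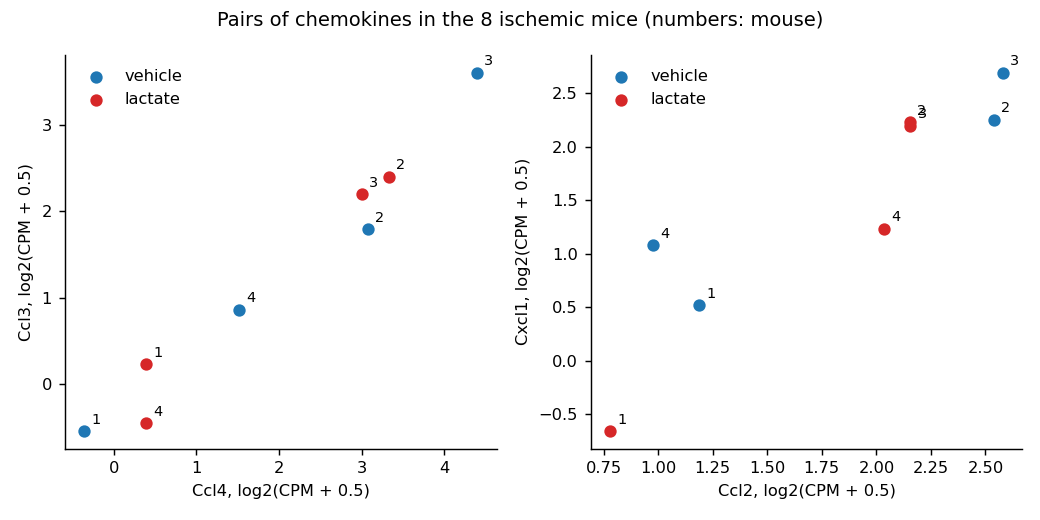
Ccl3 against Ccl4 (left) and Cxcl1 against Ccl2 (right), each as log2(CPM + 0.5), in the 8 ischemic mice, with each point labelled by the number of the mouse in its group. The points lie along a rising line in both panels (r = 0.98 and 0.91), with vehicle and lactate mice mixed.

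The values of Ccl12 can also be given as reads per read of its chromosomal neighbours, a description chosen after the values were seen. In lactate mice the ratio of Ccl12 to Ccl2 counts was 5.45 to 15.9, and in vehicle mice 0.537 to 5.6. The ratio of Ccl12 to Ccl7 was narrow in the lactate mice, 12.9 to 15.5, and wide in the vehicle mice, 0.857 to 69, with the highest value in vehicle mouse 1, which held 1 Ccl7 count. Exact permutation tests of the log2 ratios, lactate against vehicle, did not pass adjustment over the 2 ratios (adjusted p = 0.0572 for Ccl2 and 0.314 for Ccl7). The smallest unadjusted p possible with 4 mice per group was 0.0286.

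**Figure D5:**
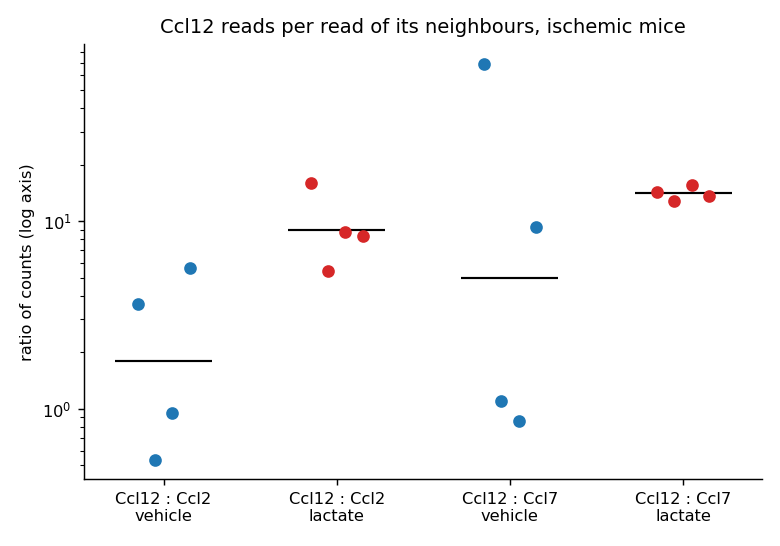
Counts of Ccl12 per count of Ccl2 (left pair) and per count of Ccl7 (right pair), on a log axis, in the 4 vehicle and 4 lactate mice. Points are mice and lines are geometric means. The lactate mice lie at 12.9 to 15.5 for Ccl7, where the vehicle mice run from 0.857 to 69.

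Sequence likeness within the family bears on how reads can be assigned. Among 36 other chemokine genes, the coding sequence of Cxcl2 was closest to Cxcl3 (89.8% identical) and Cxcl1 (75.9%), and Ccl3 and Ccl4 were 70.1% identical to each other. Ccl12 was closest to Ccl8 (66.7%), and no other pair with a member passed 75.9%. Cxcl3, the near copy of Cxcl2, had mean levels of 0 CPM in sham, 0.0324 with vehicle and 0.0629 with lactate, and the Cxcl2 values are uncertain to the extent that reads of these genes were exchanged.

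Of the other 27 chemokine genes, 15 could be tested. With vehicle against sham 1 rose, where 1.02% of all features did, and the median log2 fold change was 0.43 beside 0.03 over all features. With lactate against sham 2 rose, where 6.58% of all features did, and the median was 0.51 beside -0.02. None fell in either comparison. Ccl9, a myeloid chemokine, rose from 0.469 ± 0.291 CPM to 2.41 ± 0.727 with vehicle (log2 fold change 2.35, adjusted p = 0.0223) and 3.71 ± 0.283 with lactate (2.93, adjusted p = 0.000294). Ccl6, its relative, rose with lactate from 2.13 ± 0.582 to 5.42 ± 1.35 CPM (1.34, adjusted p = 0.00874), and had a log2 fold change of 0.78 with vehicle (adjusted p = 0.353). The call of Ccl9 with vehicle was lost without sham mouse 2, 3 or 4 or vehicle mouse 2 or 3.

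The 3 other chemokine genes with the highest mean CPM, a scale that is not per length, were Ccl27a, Cx3cl1 and Cxcl14. Ccl27a was at 891 ± 36.9 CPM in sham, 774 ± 156 with vehicle and 711 ± 47.8 with lactate, and its difference with lactate passed the adjusted p (0.0208) but not the fold limit. Cx3cl1 (fractalkine, a neuronal ligand of microglia) was at 93.5 ± 8.28, 98.5 ± 13.8 and 82.6 ± 10.4 CPM and Cxcl14 at 36.3 ± 7.98, 58.2 ± 21 and 40.3 ± 7.96 CPM, with no call. Between lactate and vehicle, edgeR and DESeq2 called 0 of 15, and 2 had an unadjusted p under 0.05, with no fold limit, as did 2085 of all 24650 features.

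Of the receptors, 14 were tested with vehicle against sham (median log2 fold change 0.16, beside 0.03 over all features, of which 1.16% were called). Of these 1 fell, Cx3cr1, the microglial fractalkine receptor, by 1.22 on the log2 scale (adjusted p = 0.0189), and 0 were called without sham mouse 1, 2 or 3 or vehicle mouse 3, and 2 without vehicle mouse 1. Of 14 tested with lactate against sham (median 0.12, beside -0.02 over all features, of which 8.86% were called), Ackr1 rose by 0.80 (adjusted p = 0.00959), Ccr1 rose by 3.22 (adjusted p = 0.0268), and Ackr4 fell by 3.28 (adjusted p = 0.0173). Ackr1 and Ackr4 are atypical receptors that bind chemokines without the usual signal, and Ccr1 binds Ccl3, Ccl5 and Ccl7. Ccr1 held little RNA in every group, at 0.0557 CPM in sham, 0.251 with vehicle and 0.714 with lactate. Ackr4 was low as well, with 6 to 9 counts in each sham mouse and 0 to 3 in each lactate mouse. Cxcr2, the receptor of Cxcl1 and Cxcl2, was at 2.66 ± 0.405, 3.39 ± 0.121 and 2.13 ± 0.898 CPM and was not called. Between lactate and vehicle, edgeR and DESeq2 called 0 of 13, and 3 had an unadjusted p under 0.05, beside 2085 of 24650 features.

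Genes of NF-kappa B signalling moved in 1 direction where they were called. With vehicle against sham, 3 of 19 rose and 0 fell, where 1.02% of all features rose (median log2 fold change 0.78, beside 0.03). Nfkbia, the inhibitor that NF-kappa B induces, went from 11.1 ± 1.55 to 33.5 ± 3.96 CPM (log2 fold change 1.62, adjusted p = 0.000152), and its relative Nfkbiz from 3.13 ± 1.2 to 18.3 ± 12 (2.56, adjusted p = 0.0105). Il1r1, the signalling receptor of interleukin 1, rose by 1.34 (adjusted p = 0.0229). Without sham mouse 1, 2 or 3 the count was 1, without vehicle mouse 1 it was 4 and without vehicle mouse 2 it was 2.

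With lactate against sham, 6 of 19 rose and 0 fell, where 6.58% of all features rose (median 0.79, beside -0.02). Nfkbia was at 34 ± 1.90 CPM (1.60, adjusted p = 1e-05), Il1r1 rose by 1.5 (adjusted p = 0.0016), Nfkbiz by 1.46 (0.00583), the tumour necrosis factor receptor Tnfrsf1a by 1.32 (0.0016), the adaptor Myd88 by 1.23 (0.0201) and Bcl3 by 2.80 (0.0443). Bcl3 was near the floor, with 0 or 1 counts in each sham mouse and 4 or 5 in each lactate mouse. Between lactate and vehicle, edgeR and DESeq2 called 0 of 20, and 1 had an unadjusted p under 0.05, beside 2085 of 24650 features. Nfkbia differed by -0.02 (SE 0.15) there.

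The 5 genes outside the group whose profile over the 12 mice was closest to the mean profile of the members, by mean absolute distance of standardised log2(CPM + 0.5) among 13135 genes, were Cyba, a subunit of the phagocyte oxidase (0.25 SD), Bcl2a1b (0.28), Lilr4b (0.281), Tpm4, a tropomyosin (0.289), and Il1r2, the decoy receptor of interleukin 1 (0.29). Il1r2 was at 0.0608 ± 0.0707 CPM in sham, 2.21 ± 0.908 with vehicle and 2.56 ± 1.01 with lactate, and Tpm4 at 8.04 ± 0.762, 22.1 ± 8.71 and 22 ± 4.49 CPM. Bcl2a1b and Lilr4b belong to families of near-identical genes, so their counts are uncertain. Among the members themselves, Cxcl12 was farthest from the mean profile (1.45 SD).

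Markers of other cell types moved in the same mice, and their part in the chemokine results was not tested. Of 9 neutrophil markers, S100a8, S100a9 and Retnlg were called higher than sham in both ischemic groups (3 of 5 and 3 of 6 that could be tested, beside 1.02% and 6.58% of all features), and the summed level, carried mostly by S100a8 and S100a9, was 3.34 to 7.65 CPM in sham, 12.2 to 76.3 with vehicle and 20.8 to 43.9 with lactate, while the defining markers Ly6g and Camp were at 0 in all sham mice and under 0.07 CPM on average elsewhere. The others were not called or could not be tested, and Csf3r was at 1.73 CPM in sham, 0.858 with vehicle and 1.59 with lactate. Vehicle mice 2 and 3, the higher pair for Ccl2, Ccl4, Cxcl1 and Cxcl2, also had the most neutrophil marker RNA, at 57.5 and 76.3 CPM, and were the higher pair for Cxcl12 as well. In the lactate group the order differed: mouse 1, the lowest for Ccl2, Cxcl1 and Cxcl2, held 27.6 CPM of these markers, against 25.5, 43.9 and 20.8 in mice 2 to 4. The 7 microglial markers summed to 253 to 292 CPM in sham, 184 to 258 with vehicle and 305 to 329 with lactate, so that lactate and vehicle mice did not overlap in these as in Ccl12. Within that list C1qa rose with lactate against sham (log2 fold change 1.36) and held much of the gap between the ischemic groups, at 49.9 CPM with vehicle and 98.8 with lactate. C1qa was not called between these 2 groups (log2 fold change 0.95, adjusted p = 0.408). Against sham, P2ry12 fell by 1.02 with vehicle and fell by 1.15 with lactate, and Cx3cr1 fell by 1.22 with vehicle.

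The 6 astrocyte markers summed to 592 to 889 CPM in sham, 794 to 871 with vehicle and 960 to 1014 with lactate, again without overlap of the ischemic groups. Gfap alone, at 159 CPM with vehicle and 283 with lactate, carried most of that gap, and the fitted log2 fold changes of the other 5 between these groups ran from -0.23 to 0.21. Gfap, the marker of reactive astrocytes, rose with vehicle (log2 fold change 1.64, adjusted p = 0.0154) and with lactate (2.42, adjusted p = 6.86e-07) against sham. Between lactate and vehicle Gfap was not called (0.78, adjusted p = 0.543). The 4 red blood cell markers summed to 559 to 631, 332 to 499 and 375 to 498 CPM in sham, vehicle and lactate mice, and the choroid plexus marker Ttr was called higher than sham in both ischemic groups. With vehicle Ttr ranged from 2.64 to 1817 CPM, the highest in vehicle mouse 2 and the lowest within the sham range of 0.815 to 2.90. Whether the Ttr call holds without vehicle mouse 2 is not given here.

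The 6 monocyte and macrophage markers summed to 7.74 to 13.2, 10.4 to 21.6 and 11.8 to 22.4 CPM in sham, vehicle and lactate mice, with Lyz2 called higher with lactate. The 8 T and NK cell markers summed to 3.90 to 5.67, 4.01 to 7.63 and 3.59 to 10.1 CPM, and did not follow Ccl5 mouse by mouse. Lactate mouse 4, with the most Ccl5, had the highest sum, but lactate mouse 1, with the least, had the next (9.19), and lactate mouse 2, with the next most Ccl5, had the lowest (3.59). Lck (2.70 CPM on average over the 12 mice) and Cd4 (2.36) carried most of that sum. Cd3e and Ncr1 were at 0 in all 12 mice, and Cd3d (0.0419), Cd3g (0.0108) and Nkg7 (0.0279) were close to 0. The sum is therefore a weak measure of T and NK cells. Beside the lower Cxcl12, the 6 endothelial markers summed to 75.4 to 87.5 CPM in sham, 53.8 to 83.8 with vehicle and 53.9 to 71.7 with lactate, with Slco1a4 called lower with lactate (log2 fold change -1.74, adjusted p = 0.000498). Slco1a4, at 30.5, 14.1 and 9.16 CPM, carried most of the lower sum, and Pecam1, Flt1 and Cdh5 had fitted values above 0 in both comparisons with sham. Tek (-1.51 with vehicle and -1.43 with lactate) and Cldn5 (-0.51 and -0.34) had fitted values under 0 and were not called. Over the same groups the 5 pericyte and smooth muscle markers summed to 41.3 to 52.2, 30.4 to 45.1 and 34.6 to 39.6 CPM.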

How the data were processed

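Brain RNA of 12 mice was read as full-length nanopore cDNA (14 PCR cycles). The authors made the deposited count values after removing reads under 500 bp or under a mean quality of 7 and ribosomal RNA, and mapping with minimap2. From these counts and the total of each mouse the authors also derived the CPM columns, which differ from recomputed ones by at most 4.7e-06. How reads were counted per gene is not given in the sources used here. The submitters' processing notes name GRCm38 and DESeq 1.10.1. The authors' own P values and fold changes were not used.

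Groups and mouse numbers come from the labels. 4 lines without a gene were left out, and 27 symbols held as dates were restored. Each pair of groups was fitted with the quasi-likelihood test of edgeR 4.0.16 under R 4.3.3, after TMM scaling, on features with a total of at least 10 counts over the 8 mice, with Benjamini-Hochberg adjustment over all features. A gene was called where the adjusted p was under 0.05 and the change 1.5-fold or more. DESeq2 1.42.0, limma 3.58.1 voom, other filters and scalings, and leaving out each mouse were alternatives. Intervals are at 95%.

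The members and lists were chosen with earlier results of these data known. Named are all members, the called genes of each list or, where fewer than 3 were called, also the 3 with the highest mean CPM, and the 5 genes of mean CPM of at least 1 nearest in profile. Cxcl3 was named after its values were seen, as the near copy of Cxcl2. Exact tests used scipy 1.17.1 under Python 3.11.15.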

Additional observations from a re-analysis of the deposited data

Results flagged for a closer look

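Of 74 groups of 4 mice checked (the chemokines one by one, and the summed gene lists), 8 held a mouse far from the other 3, and chance alone gives about 1 in 20. For the chemokines these were Ccl2 in sham, where mouse 2 had 0 CPM and the others 0.123 to 0.136, which is a difference of 1 read, and Ccl2 with lactate, where mouse 1 had 1.22 CPM and the others 3.59 to 3.96. Lactate mouse 1 was also the lowest of the 8 ischemic mice for Ccl5, Cxcl1, Cxcl2 and Cxcl10.

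Among summed marker levels, vehicle mouse 2 held 1835 CPM of choroid plexus markers against 3.67 to 14.3 in the other vehicle mice. Vehicle mouse 4 held 7.63 CPM of T and NK cell markers against 4.01 to 4.12. Sham mouse 2 held 292 CPM of microglial markers against 253 to 259. Lactate mouse 4 held 15.2 CPM of meningeal fibroblast markers against 22.9 to 24.3. Vehicle mouse 1 held 5481 CPM of neuron markers against 3594 to 3853, and lactate mouse 1 held 9739 CPM of oligodendrocyte markers against 8668 to 8826.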

How the results depend on the processing

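Against sham, every fitted change of the 10 members kept its direction under all alternatives. The number called depended on the setting. With vehicle against sham (5 called), the count was 1 with a minimum of 1 CPM in 4 mice or with filterByExpr, each of which left 3 members to test, 1 with limma voom, 8 with DESeq2, 10 at an unadjusted p, and 1 to 6 when 1 mouse was left out. With lactate against sham (10 called), it was 4 with the CPM minimum and 3 with filterByExpr, which left 4 and 3 to test, 4 with limma voom, and 7 to 10 when 1 mouse was left out. It was 8 with all 12 mice in 1 fit, which lost Ccl3 (adjusted p = 0.0533) and Cxcl2 (0.0523), and 9 with Ensembl genes only, which lost Cxcl2 (0.0552). With lactate against vehicle (0 called), it was 1, namely Ccl12, with DESeq2, with all 12 mice in 1 fit or with Ensembl genes only, 2 at an unadjusted p, and 0 in every fit that left out 1 mouse. With vehicle against sham, 2 other chemokines were called with DESeq2, and leaving out 1 mouse gave 0 to 2 other chemokines, 0 to 2 receptors and 1 to 4 NF-kappa B genes.

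The mouse numbers were not taken as pairs, since the deviations of same-numbered mice correlated between -0.165 and 0.171, and above 0.1 in 2 of 4 pairs of sham with vehicle, 2 of 4 of sham with lactate and 0 of 4 of vehicle with lactate. As a hint from the data, 2, 3 and 0 of 4 mice correlated best with their own number. With the replicate block, 6 members were called with vehicle against sham (Cxcl12 in addition, adjusted p = 0.0496), 10 with lactate against sham and 1 (Ccl12, adjusted p = 0.0472) with lactate against vehicle.

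The direction reversed in the direct comparison alone, and there for members that were not called. When 1 mouse was left out, the log2 fold change ran from -0.41 to 0.11 for Ccl2, -1.29 to 0.70 for Ccl3, -1.36 to 0.39 for Ccl4, -0.80 to 0.65 for Ccl7, -0.66 to 0.14 for Cxcl1 and -0.29 to 0.10 for Cxcl12. The positive values of Ccl3, Ccl4 and Ccl7 came without vehicle mouse 3, those of Ccl2 without vehicle mouse 2 or 3 or lactate mouse 1, those of Cxcl1 without vehicle mouse 3 or lactate mouse 1, and those of Cxcl12 without mouse 2 of either group. Ccl7 was also positive with limma voom (0.73) and with the replicate block (0.12).

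Over all features, 279 were called with vehicle against sham, 473 with DESeq2, 166 with limma voom and 122 to 498 when 1 mouse was left out. With lactate against sham, 2164 were called, 831 with Ensembl genes only and 1217 to 2372 when 1 mouse was left out. With lactate against vehicle, 1 was called, 53 with DESeq2, 2 with the replicate block or with Ensembl genes only and 0 to 5 when 1 mouse was left out. At an unadjusted p, 2521, 4830 and 1617 were called. The cause of these shifts was not tested. Depth limits most members, with at most 2 counts in a sham mouse, so p-values rest on few reads.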
